A study of Mus musculus with 10 samples.

Results

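The genes described here were the long non-coding RNA (lncRNA) genes with a measurable level in the hearts of male mice born to dams given anti-Müllerian hormone (AMH) or vehicle during pregnancy. They were chosen from the deposited table of FPKM (read fragments scaled to transcript length and library total, so a level per length) as the genes of 6 GENCODE types, namely lincRNA, antisense, processed_transcript, sense_intronic, sense_overlapping and bidirectional_promoter_lncRNA, whose mean over the 10 hearts reached 1 FPKM. H19, Meg3, Rian and Mhrt were left out by the same rule. The rule kept 200 of the 9910 lncRNA genes in the table, and 3594 of the 9910 were above 0 in any heart. Both groups were wild type. The control group was 5 hearts of male offspring whose dams received phosphate-buffered saline (the label reads prenatal vehicle), and the PAMH group was 5 hearts of male offspring whose dams received prenatal AMH, an exposure that is meant to model polycystic ovary syndrome in mice. The labels give no age or strain and do not tie a heart to a litter or dam, so p-values below reflect the scatter among these samples, part of which may be technical or common to a litter.

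Long non-coding RNAs are transcripts without a recognised long reading frame. Some act as RNA in the nucleus, where they organise chromatin or nuclear bodies, some are precursors whose introns are cut out to give small nucleolar RNAs or microRNAs, and for others it is transcription through the locus that matters for a nearby gene. A small nucleolar RNA (snoRNA) of the C/D class guides the methylation of ribosomal RNA and carries a box C near its 5′ end and a box D near its 3′ end. Known examples in heart muscle include lncRNAs transcribed at the loci of myosin heavy chains and of cardiac transcription factors.

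A small number of lncRNA genes differed between the groups. Of the 200 genes, 5 were higher and 6 were lower in PAMH hearts at an adjusted p under 0.05 (limma on log2(FPKM + 1), Benjamini-Hochberg adjustment over all 9439 genes tested), and 189 did not pass. These 11 genes are 5.5% of the 200, and the share called among all tested genes was 6.19%. By direction, 2.5% of the lncRNA genes were called higher against 4.95% of all tested genes, and 3% were called lower against 1.24%. The lncRNA genes that fell were 2610035D17Rik, Gm45670, Gm36827, 2410006H16Rik, Gm17251 and Gm39214, and those that rose were Gm5113, Gm10435, Snhg6, 2210408F21Rik and Gm26917. On the log2(FPKM + 1) scale, which understates changes of low genes, the differences ran from -0.94 to 0.77. With a pseudocount of 0.1 those of Gm36827 and 2610035D17Rik, both called, were -1.24 and -1.08, and that of CAAA01066123.1, not called, was 1.05 (adjusted p = 0.138). CAAA01066123.1 had 3.82 FPKM in PAMH 4 and 0.748 to 1.11 in the other PAMH hearts. In a bulk sample of a heart, fewer cells of a type and less RNA per cell cannot be told apart. The strand setting of the counting is not given, so where exons of 2 genes overlap on opposite strands, reads on the shared bases cannot be assigned to either.

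Of the called genes 2 are hosts of C/D snoRNAs, and the sequences of the 4 snoRNAs are shown because the hosts moved in opposite directions. They are from GENCODE vM21 on build GRCm38, 5′ to 3′ on the strand of the host, with the first box C (TGATGA) and the last box D (CTGA) in capitals. The first 3 lie in the host 2410006H16Rik, at chr11:62603450-62603521, chr11:62603079-62603150 and chr11:62604515-62604586 on the plus strand, and Snord87 lies in the host Snhg6 at chr1:9942463-9942549 on the minus strand.
Snord49a: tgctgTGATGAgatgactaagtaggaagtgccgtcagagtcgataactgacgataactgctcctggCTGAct
Snord49b: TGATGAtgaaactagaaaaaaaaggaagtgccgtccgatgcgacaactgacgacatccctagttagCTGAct
Snord65: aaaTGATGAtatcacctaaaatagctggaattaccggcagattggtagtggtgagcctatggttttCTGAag
Snord87: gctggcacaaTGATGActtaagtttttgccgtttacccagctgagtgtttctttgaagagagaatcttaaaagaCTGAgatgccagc
Box C was found in 26.5%, box D in 79.3% and both in 25.6% of 1558 annotated transcripts. These were of the type snoRNA or the related type scaRNA and were not limited to the C/D class.

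The promoter sequences of 4 called genes are shown as examples from genes that share no exon with a protein-coding gene. They are 250 bases before to 50 bases after the annotated start, from RefSeq on GRCm38.p6, on the strand of the gene. Capitals mark matches on either strand of 5 motifs. The letters searched were TATAAA for the TATA box. For the motif known as the CCAAT box they were the letters of its name. The GC box was searched as GGGCGG and the E-box by its core, CACGTG. The letters CCGGAAG stood for the binding motif of the ETS factors. A match on the other strand is printed as the reverse complement. No matches overlap in the 4 sequences. Gm5113 is at chr7:30169625-30169924 (plus strand), 2410006H16Rik at chr11:62602627-62602926 (plus strand), Gm36827 at chr10:56982182-56982481 (minus strand) and 2610035D17Rik at chr11:113201789-113202088 (minus strand).
Gm5113: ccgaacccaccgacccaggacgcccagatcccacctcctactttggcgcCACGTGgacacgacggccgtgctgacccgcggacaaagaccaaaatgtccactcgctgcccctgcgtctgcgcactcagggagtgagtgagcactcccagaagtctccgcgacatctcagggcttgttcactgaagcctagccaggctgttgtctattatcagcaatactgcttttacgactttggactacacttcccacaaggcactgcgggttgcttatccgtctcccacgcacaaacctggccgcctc
2410006H16Rik: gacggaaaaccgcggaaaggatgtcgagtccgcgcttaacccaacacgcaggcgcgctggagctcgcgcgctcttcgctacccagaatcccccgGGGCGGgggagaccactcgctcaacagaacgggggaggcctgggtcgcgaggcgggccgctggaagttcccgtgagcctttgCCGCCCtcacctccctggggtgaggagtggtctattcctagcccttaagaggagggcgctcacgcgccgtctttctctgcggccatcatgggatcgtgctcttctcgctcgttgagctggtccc
Gm36827: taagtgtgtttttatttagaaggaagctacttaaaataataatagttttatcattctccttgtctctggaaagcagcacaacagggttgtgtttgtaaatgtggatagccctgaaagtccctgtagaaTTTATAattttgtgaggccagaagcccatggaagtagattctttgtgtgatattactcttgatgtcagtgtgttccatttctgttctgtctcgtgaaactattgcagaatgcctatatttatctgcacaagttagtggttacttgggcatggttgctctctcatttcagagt
2610035D17Rik: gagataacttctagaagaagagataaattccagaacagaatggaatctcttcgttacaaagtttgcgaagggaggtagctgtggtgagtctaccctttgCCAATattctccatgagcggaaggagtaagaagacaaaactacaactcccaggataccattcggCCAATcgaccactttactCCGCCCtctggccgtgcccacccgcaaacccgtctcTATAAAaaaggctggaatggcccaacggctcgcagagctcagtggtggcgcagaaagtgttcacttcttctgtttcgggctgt
Gm5113 held a single E-box, 2410006H16Rik held 2 GC boxes, Gm36827 held 1 TATA box on the opposite strand, and 2610035D17Rik held a TATA box, 2 CCAAT boxes and a GC box. Their GC content was 59.00%, 65.7%, 37.3% and 49.3%. Of the 200 lncRNA genes, 105 had promoters in the RefSeq table, 126 in all, with a median GC content of 55.5% against 52.7% over all 32851 promoters. The TATA box was in 15.1% of these 126 and 13.6% of all promoters, the CCAAT box in 34.9% and 37.4%, the GC box in 36.5% and 35.7%, the E-box in 7.14% and 7.15%, and the ETS site in 10.3% and 8.86%. A match is a description of letters and was not tied to any factor.

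The level that chose the genes is a description only. The lincRNA type gave 75 of its 5619 genes (1.33%), antisense 67 of 2958 (2.27%), processed_transcript 38 of 787 (4.83%), bidirectional_promoter_lncRNA 17 of 190 (8.95%), sense_intronic 3 of 327 (0.917%) and sense_overlapping 0 of 29. By comparison 8566 of 21899 protein-coding genes (39.1%) reached the same level. Of the 200 genes 94 were under 2 FPKM and 106 at 2 FPKM or more, with 41 at 5 or more, 21 at 10 or more and 6 at 50 or more, and a median of 2.22 FPKM against 3.81 over all tested genes. Gm38560 (1.003 FPKM) and Gm14964 (1.003 FPKM) lay just inside the threshold, and 1010001N08Rik (0.995 FPKM) and Gm11613 (0.992 FPKM) just outside. In 12 of the 200 genes the control mean, and in 4 the PAMH mean, was itself under 1 FPKM, so these 16 entered through the group in which they were higher. One of them, 2610035D17Rik, was called.

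RefSeq gave another type for some of the genes. It listed 122 of the 200 as lncRNA and had no matching entry for 65. Another 10 were protein-coding in RefSeq, among them 1810058I24Rik, which RefSeq also calls Stmp1 and which encodes a small mitochondrial protein, Cct6a, a subunit of the cytosolic chaperonin, and Ifi30, a lysosomal thiol reductase. A further 3 were pseudogenes there. None of these 13 was among the called genes.

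The libraries differed in ways that touch the lncRNA genes. The number of lncRNA genes above 0 was 1813 to 2196 in the control hearts, 1814 to 2088 in PAMH 1 to 3, 1412 in PAMH 5 and 924 in PAMH 4. The number of genes of any type above 0 was also lowest in these 2 libraries. It was 19664 to 21097 in controls, 19449 to 20625 in PAMH 1 to 3, 18037 in PAMH 5 and 16113 in PAMH 4. All 200 chosen genes were above 0 in every heart except PAMH 4, which had 196. Heart muscle genes were abundant in every sample, with a sum over 5 cardiomyocyte markers (Myh6, Tnnt2, Actc1, Myl2 and Tnni3) of 8072 to 10292 FPKM in controls and 7082 to 12348 in PAMH. Markers of other cells that moved with the group were few. The sum of 4 mesothelial markers was 0.377 to 0.987 FPKM in controls and 2.45 to 5.23 in PAMH. Of these only Upk3b was tested, and it was called. Upk3b had 0.0967 to 0.479 FPKM in controls and 1.17 to 3.10 in PAMH, so it reached the tested level through the PAMH hearts. Wt1, Lrrn4 and Msln were below the tested level. The sum of 4 macrophage markers was 45.04 to 52.9 FPKM in controls and 52.1 to 64.8 in PAMH (1 of 4, Cd68, was called). The sum of 5 red cell markers was 112 to 437 in controls and 97.3 to 863 in PAMH, highest in PAMH 4, and 3 lung markers were at 0 in all hearts. Of 4 adipocyte markers only Cidea, at 13.2 to 15.7 FPKM in controls and 17.2 to 23.2 in PAMH, was tested and called, and Adipoq, Plin1 and Ucp1 were at 0 or under 1 FPKM in every heart. None of the tested endothelial, fibroblast, smooth muscle or cardiomyocyte markers was called. The part of these cell markers in the differences below was not tested.

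Among the genes that fell, Gm45670 was the most abundant. It is an antisense gene at chr7:133747624-133753038 (plus strand, GRCm38) whose span lies within that of Dhx32, a gene for an RNA helicase of the DEAH-box family, without sharing exons. Its level was 28.9, 23.5, 25.8, 20.99 and 27.7 FPKM in the 5 control hearts and 17.6, 11.96, 17.8, 15.95 and 11.8 in the 5 PAMH hearts. Every PAMH heart lay below every control heart. The level fell from 25.4 ± 3.20 to 15.03 ± 2.95 FPKM (mean ± SD, n = 5; log2 difference -0.73, SE 0.13, adjusted p = 0.00868), and the call held under all 21 alternative settings. Dhx32 itself had 4.66 ± 0.408 and 5.76 ± 0.539 FPKM (log2 difference 0.26, adjusted p = 0.0730) in control and PAMH hearts and did not pass the test.

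2610035D17Rik, a lincRNA gene on the minus strand at chr11:113043895-113201838, is far from other starts, with Sstr2 (a somatostatin receptor gene, 0.00294 FPKM) the nearest coding gene at 417504 bp. Its level was 1.83, 2.34, 2.64, 1.81 and 1.41 FPKM in the 5 control hearts and 0.872, 0.958, 1.04, 0.576 and 1.03 in the 5 PAMH hearts. The groups did not overlap, and the highest PAMH value stayed under the lowest control value. The level fell from 2.01 ± 0.485 to 0.895 ± 0.191 FPKM (log2 difference -0.66, SE 0.12, adjusted p = 0.00843), and all 20 settings that tested it kept the call.

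Gm36827 showed the largest fall of the called genes on the log2(FPKM + 1) scale and the widest relative spread of the called genes among controls. This lincRNA gene, on the minus strand at chr10:56970329-56982232, lies 504153 bp from the start of Hsf2, a gene for a heat shock transcription factor that was below the tested level (0.853 FPKM). Its level was 4.81, 2.66, 3.15, 6.44 and 5.21 FPKM in the 5 control hearts and 2.09, 2.04, 2.47, 1.29 and 1.13 in the 5 PAMH hearts. Control 2 and control 3 were low within their group, and PAMH 4 and PAMH 5 were the lowest of all. The level fell from 4.45 ± 1.54 to 1.81 ± 0.571 FPKM (log2 difference -0.94, SE 0.20, adjusted p = 0.0172). Without PAMH 4 and PAMH 5 the log2 difference was -0.72 with an adjusted p of 0.0799, and with no filter the adjusted p was 0.0769.

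Gm17251 and Gm39214 fell with smaller margins. Gm17251, a bidirectional_promoter_lncRNA at chr17:33759992-33761870 (plus strand), shares 329 bp of exon with Rab11b, a gene for a small GTPase of recycling endosomes, on the opposite strand. Gm17251 had 2.15, 2.499, 2.11, 2.41 and 2.18 FPKM in the 5 control hearts and 1.40, 0.895, 1.84, 0.771 and 1.79 in the 5 PAMH hearts. Its groups did not overlap, although PAMH 2 and PAMH 4 were well below the other PAMH hearts (log2 difference -0.51, SE 0.13, adjusted p = 0.0394). Rab11b had 11.7 ± 3.73 and 11.1 ± 5.22 FPKM (log2 difference -0.12, adjusted p = 0.848). Gm39214, a lincRNA gene at chr8:85730816-85765095 (plus strand), shares 316 bp of exon with Itfg1 on the opposite strand. Gm39214 had 3.73, 3.25, 4.29, 4.46 and 3.83 FPKM in the 5 control hearts and 3.56, 2.54, 3.03, 2.26 and 2.38 in the 5 PAMH hearts. Here PAMH 1 lay inside the control range (log2 difference -0.39, SE 0.11, adjusted p = 0.0460). Itfg1 had 4.86 ± 0.367 and 4.91 ± 0.266 FPKM (log2 difference 0.01, adjusted p = 0.938). Gm17251 did not pass when any single control, PAMH 1 or PAMH 2 was left out (adjusted p 0.0739 to 0.0947), and Gm39214 did not pass without control 1, 3, 4 or 5 or PAMH 2, 4 or 5 (0.0666 to 0.114). Gm17251 also did not pass with no filter (0.130) or without PAMH 4 and PAMH 5 together (0.0516). Gm39214 also did not pass with the same FPKM sum (0.0645), with no filter (0.129), or without PAMH 4 and PAMH 5 together (log2 difference -0.28, adjusted p = 0.162).

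The genes that rose were led by Gm10435 on the log2 scale. It is a gene of the antisense type. Gm10435 had 3.27, 2.03, 2.62, 2.88 and 3.54 FPKM in the 5 control hearts and 5.98, 3.45, 7.02, 5.92 and 5.79 in the 5 PAMH hearts. PAMH 2, at 3.45, was the one PAMH heart inside the control range. The level rose from 2.87 ± 0.586 to 5.63 ± 1.31 FPKM (log2 difference 0.77, SE 0.15, adjusted p = 0.0144). Without PAMH 4 and PAMH 5 together the adjusted p of Gm10435 was 0.0604, and with no filter it was 0.0620.

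Gm5113, a lincRNA gene at chr7:30169875-30182324 (plus strand), starts 125 bp from Zfp146, a zinc finger gene transcribed the other way, and shares no exon with it. Gm5113 had 1.90, 2.05, 2.09, 2.23 and 2.35 FPKM in the 5 control hearts and 3.78, 4.17, 3.71, 2.62 and 4.52 in the 5 PAMH hearts. Every PAMH heart was above every control heart, with PAMH 4 the closest to the controls. The level rose from 2.13 ± 0.172 to 3.76 ± 0.713 FPKM (log2 difference 0.59, SE 0.10, adjusted p = 0.00833), and the call held under all 20 settings that tested it. Zfp146 had 2.40 ± 0.408 and 2.70 ± 0.724 FPKM (log2 difference 0.11, adjusted p = 0.684). The E-box in the promoter printed above lies upstream of the Gm5113 start and beyond the start of Zfp146, not between the starts.

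2210408F21Rik, a processed_transcript gene at chr6:31220351-31337404 (plus strand), had the tightest groups of the called genes that rose. Its level was 3.16, 2.97, 3.05, 3.24 and 3.505 FPKM in the 5 control hearts and 4.39, 4.32, 3.81, 4.24 and 4.64 in the 5 PAMH hearts. The groups did not overlap. The level rose from 3.18 ± 0.207 to 4.28 ± 0.301 FPKM (log2 difference 0.34, SE 0.07, adjusted p = 0.0158). It shares 138 bp of exon with Lncpint, a p53-induced lncRNA gene read from the opposite strand (0.0242 FPKM), and the nearest coding start, that of Mkln1, is 178384 bp away. Without PAMH 4 and PAMH 5 its adjusted p lay at the threshold and did not pass.

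**Figure D1:**
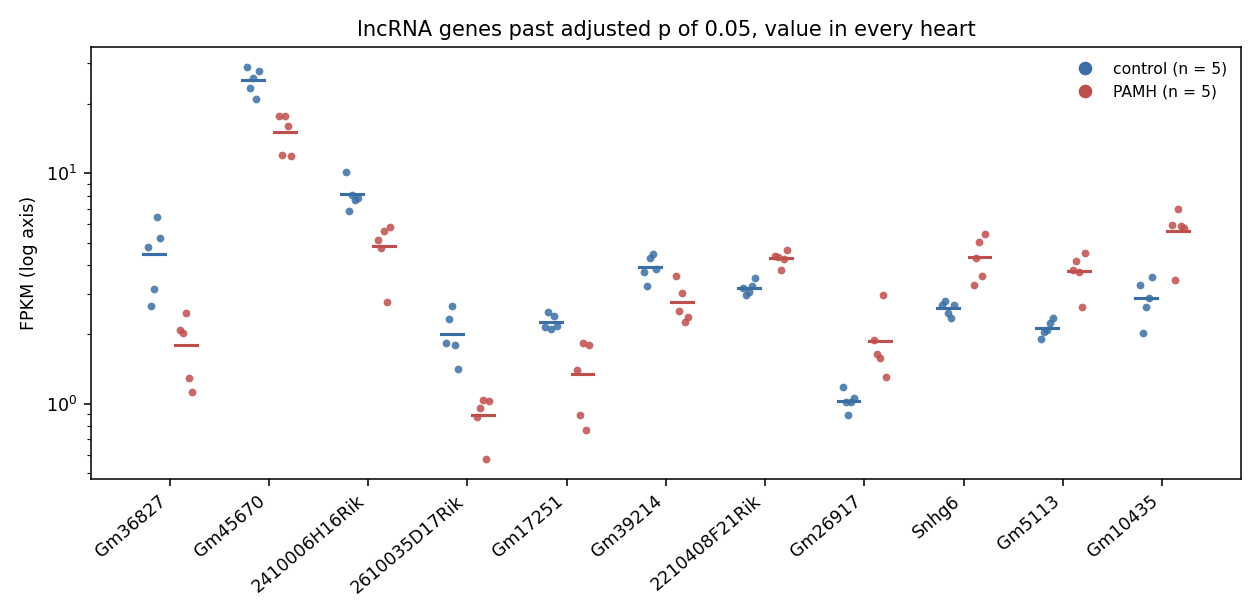
FPKM (log axis) of the 11 called lncRNA genes in each of 5 control and 5 PAMH hearts, ordered by log2 difference, with points for hearts and lines for group means. Groups do not overlap in 9 of the 11 genes, and in Gm39214 and Gm10435 1 PAMH heart lies within the control range.

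Values that did not overlap between groups were seen in 14 of the 200 genes (7%), 6 higher and 8 lower in PAMH, against 8.44% of all tested genes (6.74% higher and 1.71% lower). Besides the 9 called ones these were Cct6a, 2310040G07Rik, 5033430I15Rik, Map2k3os and Gm49477, which were named after their values were seen. At an unadjusted p under 0.05, 39 lncRNA genes (19.5%) passed, 21 higher and 18 lower, against 24% of all tested genes. Over the 200 genes the median log2 difference was 0.05, and 112 (56%) were positive. Over all tested genes the median was 0.07 and 67.3% were positive. By type, lincRNA gave 3 higher and 3 lower, antisense and processed_transcript 1 and 1 each, bidirectional_promoter_lncRNA 1 lower, and sense_intronic none. Of the 108 genes that share no exon with a gene other than a small RNA gene, 2 rose and 4 fell, and of the 92 that do, 3 rose and 2 fell. Over all tested genes 4.95% were called higher and 1.24% lower. The counts by type and by overlap are too small to compare these sets. The split of calls depended on the scaling of the libraries. It was 9 higher and 5 lower with all samples set to the same FPKM sum, beside 559 and 85 of the 9439 tested genes. It was 4 and 8 with median ratio scaling, beside 218 and 212, and 5 and 11 with quantile normalization, beside 234 and 246. The number called varied with the hearts kept, among the lncRNA genes and among all 9439. Without PAMH 3, 9 were higher and 8 lower, beside 979 and 147 of all tested genes (11.9%). Without PAMH 4 they were 8 and 6, beside 537 and 143. Without control 1, 3, 4 or 5 in turn they were 4 and 3, beside 278 to 305 of all tested genes in either direction.

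**Figure D2:**
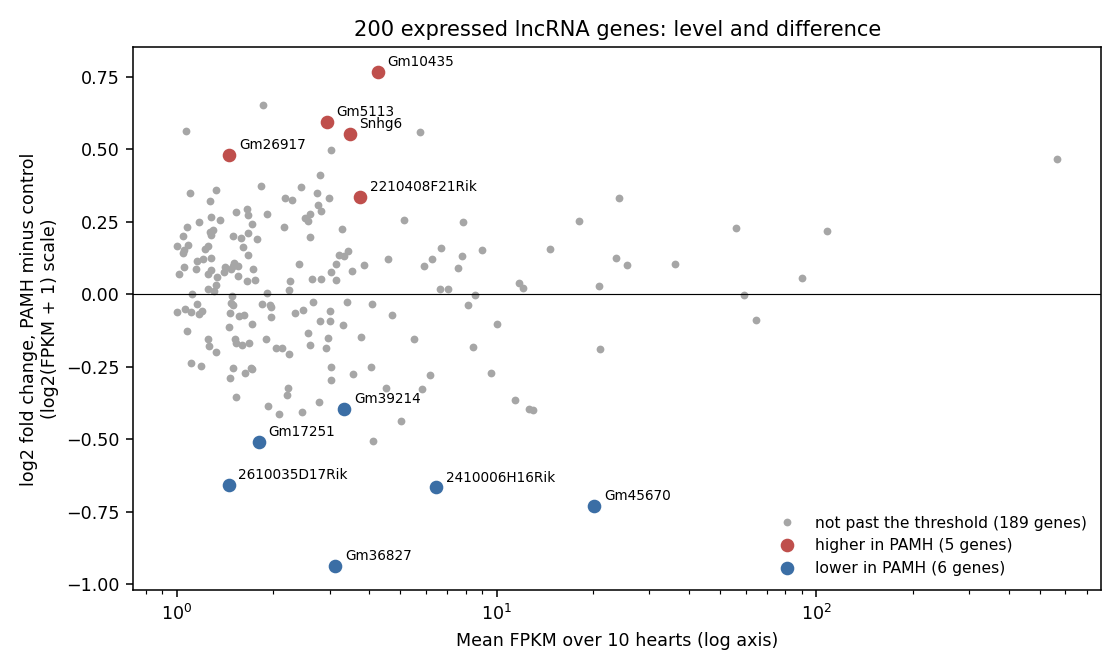
Log2 difference (PAMH minus control, log2(FPKM + 1) scale) against mean FPKM over 10 hearts (log axis) for the 200 lncRNA genes, with called genes coloured and named. Gm45670, at 20.2 FPKM, is the most abundant called gene, and none of the genes to its right is called.

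The spread between hearts is given without a test. The median coefficient of variation of the 200 genes was 18.6% among controls and 26.6% among PAMH hearts, against 9.95% and 15.1% over 8566 protein-coding genes. Among the 100 lncRNA genes of the middle 50% of levels (1.47 to 3.74 FPKM) it was 18.5% and 28.1%, and among the 3045 coding genes at those levels 11.3% and 16.8%. The median SE of the log2 difference was 0.15 for those lncRNA genes and 0.10 for those coding genes. These sets were matched on FPKM, a level per length, and not on gene length or number of reads.

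The hosts of snoRNAs were 10 of the 200 genes by the annotation. Snhg6 rose, 2410006H16Rik fell and 8 did not pass, beside 4.95% of all tested genes called higher and 1.24% called lower. The median log2 difference was -0.05, with 4 of 10 positive, beside a median of 0.07 over all tested genes. Snhg6, a lincRNA gene at chr1:9941959-9944118 (minus strand) that hosts Snord87, had 2.69, 2.80, 2.47, 2.35 and 2.69 FPKM in the 5 control hearts and 3.29, 4.31, 5.03, 3.58 and 5.44 in the 5 PAMH hearts. The groups did not overlap, and the PAMH hearts were more spread than the controls. Its level rose from 2.60 ± 0.182 to 4.33 ± 0.919 FPKM (log2 difference 0.55, SE 0.11, adjusted p = 0.0144). With no filter on level its adjusted p was 0.0558. Its exons share 127 bp with Mcmdc2, which was at 0.00451 FPKM.

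2410006H16Rik, a processed_transcript gene at chr11:62602877-62604807 (plus strand) that holds Snord49a, Snord49b and Snord65, had 10.1, 6.83, 8.08, 7.64 and 7.82 FPKM in the 5 control hearts and 5.12, 4.72, 5.63, 2.77 and 5.86 in the 5 PAMH hearts. All PAMH hearts were below all controls, and PAMH 4 was the lowest. Its level fell from 8.10 ± 1.23 to 4.82 ± 1.23 FPKM (log2 difference -0.67, SE 0.15, adjusted p = 0.0250). It shares no exon with a coding gene, and the nearest coding start, that of Trpv2, an ion channel gene, is 28391 bp away (0.471 FPKM). Its adjusted p was 0.0506 to 0.0673 when control 1, 3, 4 or 5 or PAMH 1 was left out, and 0.0979 with no filter.

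The other hosts included Cct6a, which reached 16.1, 15.6, 16.6, 17.2 and 16.3 FPKM in controls and 21.2, 17.3, 19.1, 20.3 and 20.6 in PAMH and whose groups did not overlap (log2 difference 0.25, adjusted p = 0.0510). It passed without PAMH 2 (0.0317) or PAMH 3 (0.039). AI506816 had a log2 difference of 0.35 (adjusted p = 0.110) and passed without PAMH 3 (0.0327). Gas5, a growth arrest transcript with many snoRNAs in its introns, had 1.38, 0.981, 1.39, 1.90 and 1.19 FPKM in controls and 1.13, 1.25, 1.32, 0.324 and 1.06 in PAMH, low in PAMH 4 (log2 difference -0.25, adjusted p = 0.343). Snhg8, Epb41l4aos, Snhg3, 2900076A07Rik and Snhg18 had log2 differences of -0.25, -0.19, -0.07, -0.03 and 0.01. The snoRNAs themselves were near 0 in the table, with a mean of 0.168 FPKM for Snord49a, 0.0594 for Snord49b, 0.272 for Snord65 and 0.0157 for Snord87, so a change in the host was not followed to its snoRNA here.

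**Figure D3:**
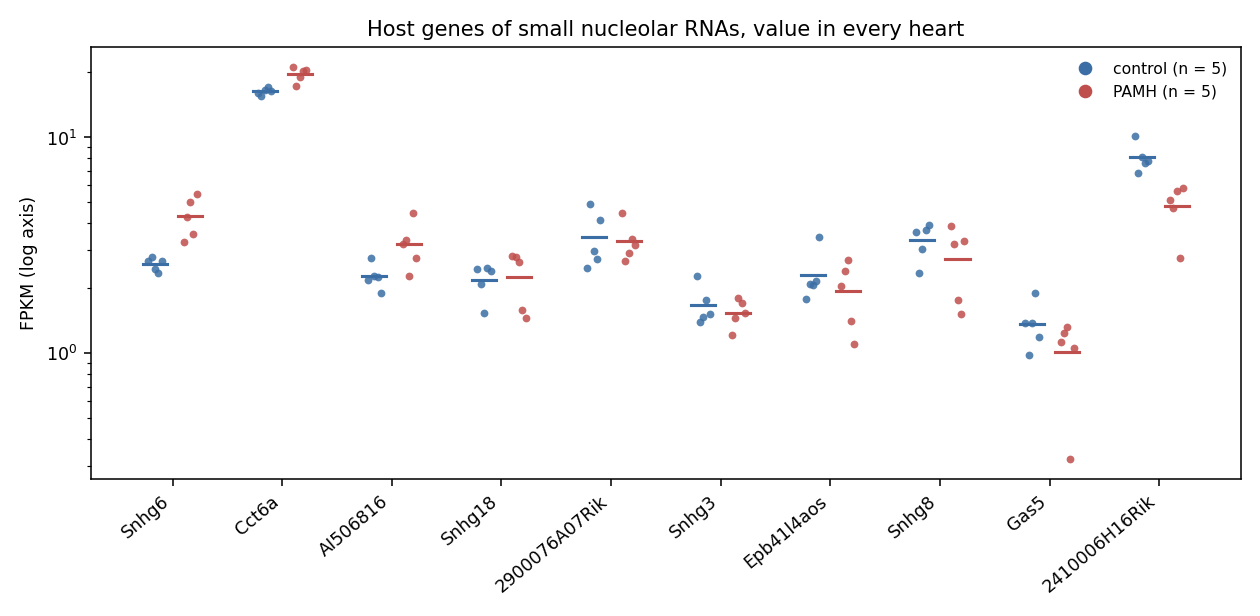
FPKM (log axis) of the 10 snoRNA host genes in each of 5 control and 5 PAMH hearts, with lines for group means. Snhg6 and Cct6a are higher in every PAMH heart, 2410006H16Rik is lower in every PAMH heart, and Gas5 has 1 low heart, PAMH 4.

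Hosts of microRNAs were 6 of the 200 genes, and none was called. Mir22hg, the primary transcript of miR-22, a microRNA abundant in heart muscle, had 1.38, 1.55, 1.66, 2.21 and 2.36 FPKM in controls and 1.70, 1.73, 1.78, 0.812 and 1.61 in PAMH (log2 difference -0.17, adjusted p = 0.478). The groups overlapped, with PAMH 4 low. Its mature products are shown because Mir22hg is known through them, from RefSeq on GRCm38.p6 with the seed (bases 2 to 8) in capitals.
mmu-miR-22-5p: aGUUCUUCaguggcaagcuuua
mmu-miR-22-3p: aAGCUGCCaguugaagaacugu
The 2 arms have different seeds. Mir133a-1hg, the host of the muscle microRNAs miR-133a and miR-1a, ranged from 1.37 to 3.26 FPKM in controls and from 0.445 (PAMH 4) to 4.19 in PAMH. The log2 difference was -0.06 with a 95% interval of -0.67 to 0.55. Gm20632, Gm15816, 2900076A07Rik and Gm48228 had log2 differences of 0.12, 0.16, -0.03 and -0.03.

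Of the 200 genes 3 lie in or next to a stretch of ribosomal RNA sequence on chromosome 17, and their values in single hearts did not go together. Gm26917, a lincRNA gene at chr17:39843013-39846341 (plus strand), was called. It had 1.18, 1.02, 0.889, 1.01 and 1.06 FPKM in the 5 control hearts and 1.90, 1.64, 1.58, 2.97 and 1.31 in the 5 PAMH hearts. The groups did not overlap, and PAMH 4 was the highest (log2 difference 0.48, SE 0.12, adjusted p = 0.0420). It did not pass when any single control, PAMH 1 or PAMH 2 was left out (adjusted p 0.0607 to 0.102), nor under median ratio scaling (0.0679) or with no filter (0.134).

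AY036118, at chr17:39847113-39848035 (minus strand), was the most abundant of all 200 genes and the most uneven. It had 1023, 0.121, 359, 500.3 and 422 FPKM in the 5 control hearts and 1248, 0.134, 635, 968 and 504 in the 5 PAMH hearts. Control 2 and PAMH 2 were near 0 while the other 8 hearts lay between 359 and 1248 FPKM. The log2 difference was 0.47 with an SE of 2.11 (adjusted p = 0.914). All 923 bp of AY036118 lie inside CT010467.1, a gene of type rRNA on the same strand, which had 371, 344, 182, 215 and 221 FPKM in controls and 473, 421, 249.8, 380.2 and 241 in PAMH and was not low in control 2 or PAMH 2. They also lie inside Rn18s-rs5, a ribosomal RNA pseudogene of RefSeq, and inside Gm42418 on the opposite strand. Gm42418 had 5.64, 4.28, 7.23, 7.07 and 5.05 FPKM in controls and 5.70, 5.65, 5.65, 3.01 and 5.93 in PAMH (log2 difference -0.15, adjusted p = 0.607), and its lowest heart was PAMH 4, where Gm26917 was highest. Reads of ribosomal RNA fit many copies, and how such reads were assigned is not given in the sources used here, so the values of these 3 genes are uncertain.

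**Figure D4:**
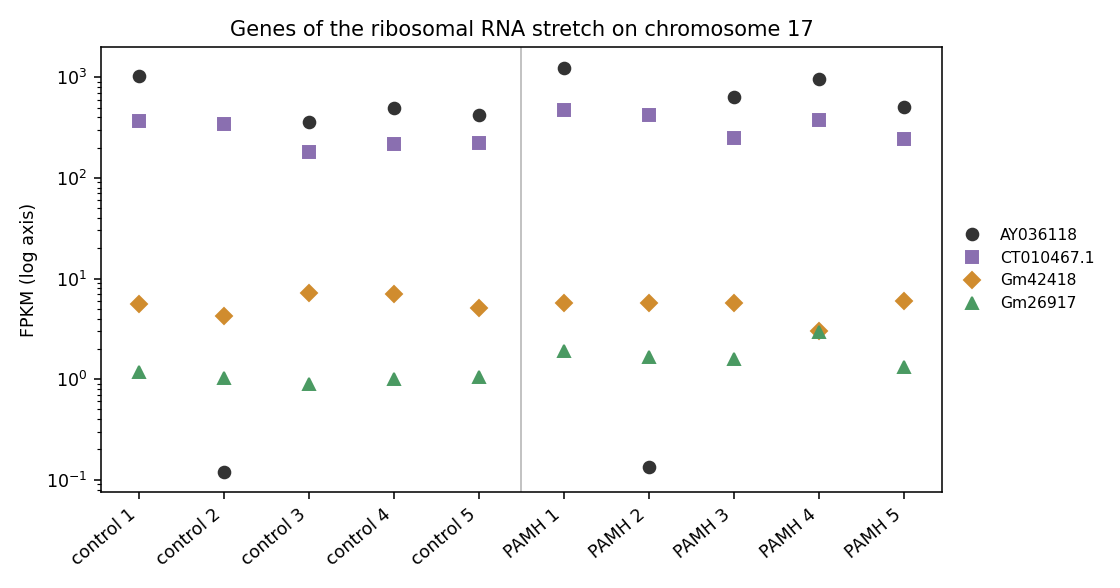
FPKM (log axis) in each of the 10 hearts of 3 lncRNA genes (AY036118, Gm42418 and Gm26917) and the rRNA gene CT010467.1 in the ribosomal stretch of chromosome 17. AY036118 is near 0 in control 2 and PAMH 2, whereas CT010467.1 stays between 182 and 473 FPKM in every heart.

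AY036118 also weighed on the share of the library taken by the lncRNA genes. The 200 genes held 0.222% ± 0.0603 of the FPKM sum in controls and 0.266% ± 0.0801 in PAMH (n = 5 each), with single hearts from 0.146% to 0.368%. Without AY036118 the shares were 0.157% ± 0.00851 and 0.167% ± 0.0103. The 10 most abundant genes made up 42.6% to 72.3% of the sum over the 200.

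None of these 10 was called. After AY036118 (566 FPKM over all hearts) they were Gm10076 (108), Ndufb1-ps (90.3), Gm15543 (64.6), Gm49708 (59.4), Gm44386 (56.01), AC132253.9 (36.2), Malat1 (25.6), Tmem250-ps (24.2) and C130080G10Rik (23.6). Gm10076 had 94.8, 102, 109, 91.98 and 102 FPKM in controls and 120.4, 102, 116, 124 and 120.0 in PAMH, higher in most PAMH hearts but with overlap (log2 difference 0.22, adjusted p = 0.0952). RefSeq lists it as a pseudogene, so its reads may be shared with its parent gene. Tmem250-ps had 20.1, 23.5, 21.5, 20.2 and 20.6 FPKM in controls and 28.02, 25.8, 21.98, 35.5 and 24.7 in PAMH (log2 difference 0.33, adjusted p = 0.0897) and passed without PAMH 3 (0.0283). Ndufb1-ps, Gm15543, Gm49708, Gm44386, AC132253.9, Malat1 and C130080G10Rik had adjusted p values from 0.28 to 0.994. C130080G10Rik starts 787 bp from Actc1, the cardiac actin gene, on the opposite strand, and had 21.9, 19.6, 23.4, 25.6 and 22.4 FPKM in controls and 26.2, 28.5, 21.99, 23.2 and 23.7 in PAMH. Actc1 had a log2 difference of 0.31 (adjusted p = 0.261), and neither passed.

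Of 21 lncRNAs known to act in the nucleus or on chromatin, looked for by symbol, 4 were found at the level. These were Malat1, Neat1, Tug1 and Firre, and none of them was called. Norad and Oip5os1 were not found under these symbols and may stand under other names, so the 4 need not be all. The median log2 difference of the 4 was 0.07 and all 4 were positive. Neat1, the scaffold of nuclear paraspeckles, had 5.76, 2.57, 4.33, 4.55 and 4.94 FPKM in the 5 control hearts and 8.12, 5.10, 9.63, 4.41 and 8.15 in the 5 PAMH hearts. Control 2 was the lowest, PAMH 2 and PAMH 4 lay inside the control range, and the other 3 PAMH hearts were above it. The log2 difference was 0.56, SE 0.20, adjusted p = 0.120, and it passed only when PAMH 4 was left out (0.69, adjusted p = 0.0496). Gm27505, a misc_RNA gene inside Neat1, had 44.04, 18.3, 0.144, 32.9 and 42.2 FPKM in controls and 50.7, 36.9, 71.8, 0.145 and 0.147 in PAMH, near 0 in 3 hearts in which Neat1 itself was not.

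Malat1, a nuclear speckle lncRNA, had 31.3, 13.1, 18.6, 31.9 and 28.2 FPKM in controls and 33.9, 22.8, 40.7, 16.3 and 19.2 in PAMH, with control 2, control 3, PAMH 4 and PAMH 5 low (log2 difference 0.10, 95% interval -0.50 to 0.70). Tug1 and Firre had log2 differences of 0.04 and 0.03. Below the level were, among others, Dubr (0.714 FPKM in the mean), Kcnq1ot1 (0.0169) and Miat (0.000682). Of 9 imprinted lncRNAs looked for by symbol, Peg3os was not found, and Peg13 alone reached the level, at 6.999 ± 0.430 and 7.09 ± 0.0830 FPKM. It was among the steadiest of the named genes, with a log2 difference of 0.02 (95% interval -0.12 to 0.15).

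Of 16 lncRNAs with known roles in the heart, looked for by symbol, Chast, Wisper and Sghrt were not found. Of the others 7 reached the level, among them 1810058I24Rik, which is protein-coding in RefSeq. None was called, with 5 of 7 log2 differences positive and a median of 0.10. Besides Neat1, Malat1, Gas5 and Mir22hg these were 1810058I24Rik, Hand2os1 and Bvht. 1810058I24Rik had 13.7, 16.2, 12.9, 13.4 and 13.1 FPKM in controls and 16.3, 15.2, 13.3, 16.6 and 16.3 in PAMH (log2 difference 0.15, adjusted p = 0.286). Hand2os1, which is read from the strand opposite to Hand2, the gene of a cardiac transcription factor, had 1.58, 1.19, 1.29, 1.46 and 1.54 FPKM in controls and 1.61, 1.67, 1.88, 1.42 and 1.34 in PAMH (log2 difference 0.10, adjusted p = 0.488). Hand2 had 17.3 ± 3.89 and 16.8 ± 4.06 FPKM (log2 difference -0.05, adjusted p = 0.884). Exons of Hand2os1 and Hand2 share 461 bp, and reads on those bases cannot be assigned to either gene. Bvht, known in mouse as a factor of cardiac commitment, had a log2 difference of 0.13. Chaer1, a lncRNA of cardiac hypertrophy, stayed below the level at 0.682 FPKM, and Carmn was at 0.0424.

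Each lncRNA gene was set beside the coding gene that overlaps it or has the nearest start. A tested neighbour was found for 133 of the 200, and the log2 differences of gene and neighbour had the same sign in 75 (56.4%), with a Pearson r of -0.02 and a Spearman rho of -0.03 across these 133 pairs. The pairs come from the same libraries and may share reads, so these are descriptions. The sign was shared in 30 of 53 pairs with overlapping exons, in 11 of 17 whose spans alone overlap, in 17 of 27 (63.0%) that start within 1000 bp on opposite strands, and in 17 of 36 others. In the same order the r was -0.05, -0.07, 0.30 and -0.17. Of the 133 pairs, 6 lncRNA genes (4.51%) and 11 neighbours (8.27%) were called, beside 6.19% of all tested genes, and none of these fell in the same pair.

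The 11 called neighbours stood beside lncRNA genes that did not pass. Gm31251, an antisense gene whose exons share 523 bp with Myh7, had 9.68, 6.57, 6.26, 9.83 and 10.1 FPKM in controls and 11.2, 9.72, 10.3, 9.60 and 6.60 in PAMH (log2 difference 0.15, adjusted p = 0.585). Its partner Myh7 encodes the slow cardiac myosin, which adult mouse ventricle makes mainly under stress, and rose from 14.6 ± 2.10 to 32.2 ± 7.73 FPKM (log2 difference 1.07, adjusted p = 0.00223). Atcayos had 6.59 ± 1.18 and 6.66 ± 1.001 FPKM beside Nmrk2, a nicotinamide riboside kinase of muscle, which rose from 2.32 ± 0.354 to 5.28 ± 1.71 (adjusted p = 0.0173). Exons of Atcayos and Nmrk2 share 270 bp on opposite strands. The difference between the changes of gene and neighbour was not tested. These lncRNA genes were chosen for their neighbours' values.

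4930481A15Rik and Drap1, a transcriptional corepressor gene, had log2 differences of opposite sign, -0.51 (adjusted p = 0.0625, short of the threshold) and 0.43 (0.0356). Their exons share 43 bp on opposite strands, and reads on those bases cannot be assigned to either gene. 4930481A15Rik also shares 153 bp of exon with the pseudogene Gm6293. The part of shared reads in these differences was not tested.

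**Figure D5:**
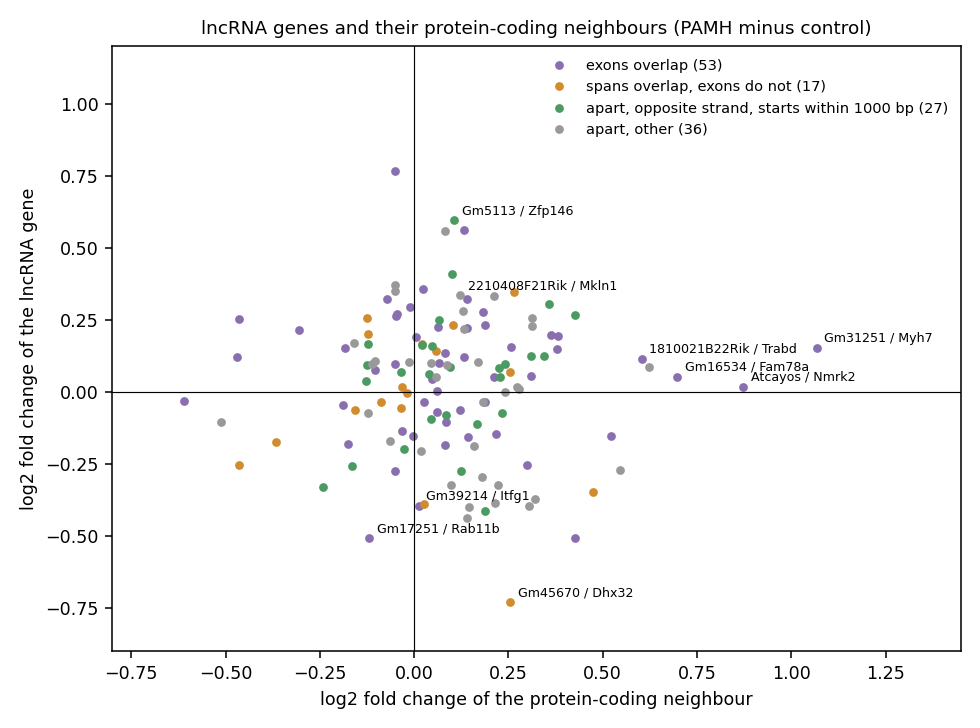
Log2 difference (PAMH minus control) of 133 lncRNA genes against that of their protein-coding neighbours, coloured by how the pair lies, with a name at some pairs in which one gene is called. The r over the pairs is -0.02, and no point is a pair with both genes called.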

How the data were processed

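RNA of 10 mouse hearts was sequenced after Trizol extraction and a VAHTS universal library kit, per the labels' protocols. The authors deposited 1 table of FPKM for 55335 genes. Per the submitters' processing notes, reads were handled on build mm10 with DESeq2 1.18.1, R 3.4.1, HTSeq 0.13.5, HISAT2 2.2.1, Trimmomatic 0.38 and FastQC 0.11.9, whose steps the notes do not say. How the FPKM were computed is not given in the sources used here, nor are the annotation, the strand setting or the handling of reads that match several places. Whole reads could not be recovered and the depth is unknown. The FPKM summed to 654350 to 717453 per sample.

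Identifiers were matched to GENCODE vM21 (GRCm38), which held 55154 of them. The 9439 genes whose mean reached 1 FPKM were fitted as log2(FPKM + 1) by group with limma 3.58.1 in R 4.3.3 (trended empirical Bayes, 2-sided). P-values were adjusted over all of them by Benjamini-Hochberg, with 0.05 as the threshold. Differences are on this scale, which understates changes of low genes. The fit was tested on simulated data. Groups and replicate numbers came from the sample titles. Exon overlaps were found with bedtools 2.31.1. The genes, lists and tests were chosen with earlier results of these data known. Named were all called genes with their coding neighbours (some neighbours are not reported here), the 10 most abundant, list members with up to 5 in values, and the genes at the threshold of level. A gene hosts a small RNA when its span holds that RNA on the same strand. Alternatives were the pseudocount (0.1), the filter (none, or 5 FPKM), 3 scalings, array weights, robust empirical Bayes, the replicate block, each sample left out, PAMH 4 and 5 left out, and gene types.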

Additional observations from a re-analysis of the deposited data

Results flagged for a closer look

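In 7 of 76 groups of 5 hearts tested over the named genes, 1 heart stood apart from the other 4 by Dixon's criterion, which chance meets in about 1 in 20 groups. Gas5 was at 0.324 FPKM in PAMH 4, with the other PAMH hearts at 1.06 to 1.32. Mir22hg was at 0.812 in PAMH 4, with the others at 1.61 to 1.78, and Gm42418 at 3.01 in PAMH 4, with the others at 5.65 to 5.93. Gm20632 was high in control 3 at 4.71 (others 4.16 to 4.302) and in PAMH 5 at 5.75 (others 4.43 to 4.71). Gm15816 was high in PAMH 5 at 1.71 (others 1.17 to 1.297), and 1810058I24Rik was high in control 2 at 16.2 (others 12.9 to 13.7). Over all 200 lncRNA genes 29 of 400 groups held such a heart, and it was PAMH 4 in 13 and control 2 in 5. PAMH 4 is also the library with the fewest lncRNA genes above 0 (924) and the fewest genes of any type above 0 (16113).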

How the results depend on the processing

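The calls of Gm5113, Gm45670 and 2610035D17Rik held under every setting that tested them. The counts of 5 higher and 6 lower (467 and 117 of all 9439 tested genes) became 2 and 2 with no filter (196 and 68 of 26758), 1 and 2 of 41 genes at 5 FPKM (452 and 75 of 3893), 9 higher with the same FPKM sum (559), 11 lower with quantile normalization (246), 12 and 11 with array weights (1038 and 176), 3 lower without PAMH 4 and 5 (81), and 2 higher among the 108 genes that share no exon with a gene other than a small RNA gene. Such counts need not hold the same genes. All 5 genes called higher had a mean under 5 FPKM, so the 1 higher at 5 FPKM was not among them. Without PAMH 4 and 5 the number higher was again 5, although Gm10435 and 2210408F21Rik did not pass there. Leaving out 1 heart gave 4 to 9 higher and 3 to 8 lower, while the number called among all tested genes ran from 278 to 1126. The causes were not tested. Same-numbered hearts share only a number (correlations of deviations -0.195 to 0.16, 1 of 5 controls best with its own), and the replicate block gave 3 higher and 3 lower (175 and 64 of all). It left adjusted p of 0.0682 for Gm36827, 0.0948 for Gm17251, 0.0904 for Gm39214, 0.0516 for 2210408F21Rik and 0.0748 for Gm26917. The median log2 difference of the lncRNA genes was -0.0208 under median ratio scaling and -0.0182 under quantile normalization, where that of all tested genes was also near 0. The share of the FPKM sum was 0.244% over all hearts, 0.162% without AY036118 and 0.544% without mitochondrial genes, both chosen after seeing the data. Neighbours of the same sign were 84.6% at 5 FPKM (11 of 13 pairs) and 48.1% under median ratio scaling, and 48.1% to 57.1% with 1 heart left out. Signs turned in genes that were not called. Under median ratio scaling the log2 differences were -0.0426 (Ndufb1-ps), -0.0152 (Tug1), -0.0204 (Firre), -0.0685 (Peg13) and -0.0697 (Itfg1). Under quantile normalization they were -0.0577 (Ndufb1-ps), -0.023 (AC132253.9), -0.0273 (Malat1), -0.00298 (C130080G10Rik), -0.0899 (Peg13) and -0.0766 (Itfg1). With array weights they were -1.33 (AY036118), 0.0718 (Mir133a-1hg), -0.0339 (Firre) and -0.0112 (Itfg1), and with the same FPKM sum 0.0456 (Gm49708) and 0.00645 (Gm48228). Without PAMH 4 and 5 they were -0.676 (AY036118), -0.0478 (Ndufb1-ps), 0.0603 (Gm49708) and 0.225 (Mir133a-1hg). With 1 heart left out the ranges crossed 0 for AY036118 (-1.31 to 2.35), Firre (-0.104 to 0.1001), Gm14964 (-0.238 to 0.0568), Gm48228 (-0.163 to 0.0843), Gm49708 (-0.0818 to 0.0349), Itfg1 (-0.0262 to 0.0322), Malat1 (-0.0975 to 0.248), Mir133a-1hg (-0.248 to 0.213), Peg13 (-0.00644 to 0.0441), Rab11b (-0.353 to 0.0558) and Tug1 (-0.0457 to 0.146). For single genes and neighbours 943 values kept their call and direction, 81 fell short of the threshold, 13 newly passed it and 48 changed sign. With 5 hearts a group and no read counts, small differences in genes near 1 FPKM lie within the error.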
